A study of Homo sapiens with 19 samples.

Results

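The genes described here encode 9 subunits of activator protein 1 (AP-1): JUN, JUNB, JUND, FOS, FOSB, FOSL1, FOSL2, ATF3 and BATF3. They were chosen by symbol, and all 9 were found among the 23441 genes of the count table. All 9 passed the low-count filter, which left 14225 genes for testing. 786-O, an established cell line, derives from a clear cell kidney cancer and is defective for VHL, the protein that marks HIF-a subunits for destruction, so HIF-2a accumulates in it without hypoxia. Pools of these cells were transduced with 1 of 3 lentiviruses: the empty vector pRRL (control cells), pRRL-HIF-1a (HIF-1a re-expression) or pRRL-HIF-2a (HIF-2a over-expression). Every pool, the control pool included, carried a bicistronic vector with EGFP and kept its own HIF-2a. By the paper's account 786-O cells make no wild-type HIF-1a. Their own HIF1A transcripts are truncated or fused, and the paper predicts that these encode no active HIF-1a. PolyA+ RNA was sequenced in 3 libraries per pool, numbered 1, 2 and 3 in the labels, and chromatin was immunoprecipitated with antisera to HIF-1a, HIF-2a or HIF-1b, which gave 7 peak lists of 1 library each.

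AP-1 is a family of dimeric transcription factors whose subunits pair through a basic leucine zipper. The JUN proteins can pair with one another or with the FOS proteins, while the FOS proteins need a JUN partner to bind DNA. FOS, FOSB, JUN, JUNB and ATF3 belong to the immediate-early genes, which growth factors, serum or stress switch on within minutes and whose mRNA decays quickly. FOSL1 and FOSL2 follow more slowly and are held up by sustained ERK signalling. The hypoxia-inducible factors HIF-1 and HIF-2 are dimers of a HIF-a subunit with HIF-1b and bind a short DNA element, the hypoxia response element (HRE).

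The labels gave only the number of each RNA-seq library and not what it stood for. Libraries with the same number nevertheless deviated together from the means of their pools, so 2 questions were asked of each subunit gene: how its mRNA differed between the numbers, and how it differed between the pools. Levels are read counts relative to the total of the library (CPM), scaled with TMM factors. The 9 libraries held between 27852754 and 54287621 counts, and BATF3, the rarest subunit mRNA, rested on the fewest of them. Nothing in the labels said that libraries of a pool came from separate cultures, and the p-values measure the spread between these libraries, which may be technical.

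HIF1A, the gene supplied by the pRRL-HIF-1a virus, stood at 171, 1681 and 472 CPM in libraries 1, 2 and 3 of the HIF-1a cells and at 30.4, 36.7 and 152 CPM in the control cells. The third control library thus came close to the first HIF-1a library, and the difference between the pools, a log2 fold change of 3.41 (SE 0.87), had an adjusted p of 0.149, or 0.0418 with the number as a block (3.12, SE 0.71). EPAS1, which encodes HIF-2a, stood at 946, 3243 and 880 CPM in the HIF-2a cells and between 162 and 456 CPM in the control cells (2.59, SE 0.57, adjusted p = 0.49, and 2.48, SE 0.46, adjusted p = 0.069 with the block), and so did not pass the test. The HIF1A counts do not separate the viral mRNA from the truncated transcripts of the cells, so the control levels do not stand for working HIF-1a. The renal markers PAX8, KRT8 and VIM were abundant in all pools. Of 6 such markers 1, the keratin gene KRT18, was called lower in the HIF-1a cells than in the control with the block (-0.86, SE 0.19, adjusted p = 0.0405), beside 2.55% of all genes. KRT8 averaged 554 CPM in the control and 331 in the HIF-1a cells and was not called (-0.74, SE 0.23, adjusted p = 0.0675 with the block). Their part in the subunit results was not tested. PTPRC and CDH5, markers of leukocytes and endothelium, were at or near 0 throughout, and of the 6 such markers only CD68, at 28.6 to 160 CPM, was abundant.

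The sequences that the expression and binding results turn on are shown first, read from GRCh37. Capitals mark, on either strand, the core of the HRE (ACGTG or GCGTG), the AP-1 site (TGACTCA, which reads TGAGTCA on the other strand), the cyclic AMP response element (CRE, TGACGTCA) and the site known from the JUN promoter (TGACATCA). CACGTG was counted as 2 overlapping HRE cores, 1 on each strand. The promoters of FOS and FOSB are given because these genes varied most between libraries, and that of JUN because a peak lay there in all 7 lists. Each is the 250 bases before the canonical GENCODE start on the strand of the gene: chr14:75745281-75745530 (+), chr19:45971004-45971253 (+) and chr1:59249720-59249969 (-).
FOS promoter: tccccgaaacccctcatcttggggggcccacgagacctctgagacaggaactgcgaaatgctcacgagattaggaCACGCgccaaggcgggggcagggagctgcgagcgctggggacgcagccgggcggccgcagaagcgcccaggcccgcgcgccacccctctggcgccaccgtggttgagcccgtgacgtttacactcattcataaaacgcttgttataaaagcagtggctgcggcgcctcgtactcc
FOSB promoter: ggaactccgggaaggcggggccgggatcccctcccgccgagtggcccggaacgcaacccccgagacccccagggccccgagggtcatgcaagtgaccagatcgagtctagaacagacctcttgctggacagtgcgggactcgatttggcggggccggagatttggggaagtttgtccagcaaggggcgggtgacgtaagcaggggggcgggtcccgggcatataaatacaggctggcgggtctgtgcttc
JUN promoter: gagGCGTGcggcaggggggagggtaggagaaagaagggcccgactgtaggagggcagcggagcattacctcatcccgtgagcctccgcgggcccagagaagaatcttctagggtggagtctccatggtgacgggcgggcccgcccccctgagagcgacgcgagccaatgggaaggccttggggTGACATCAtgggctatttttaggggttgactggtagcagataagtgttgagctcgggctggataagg

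The next 3 sequences are the central 300 bases, on the plus strand, of peaks at sites found in all 7 lists. Each is the centre of the peak of 1 list. The midpoints of the 7 lists spread over 1606 bases at the JUN site, 2130 at FOSL2 and 1532 at FOSL1. The centres of other peaks can thus lie outside the printed bases. The first lies upstream of JUN and outside it (chr1:59250707-59251006, HIF-2a peak of the control cells), the second in an intron of FOSL2 (chr2:28632083-28632382, HIF-2a peak of the control cells) and the third upstream of FOSL1 and outside it (chr11:65679017-65679316, HIF-2a peak of the HIF-1a cells).
JUN upstream site: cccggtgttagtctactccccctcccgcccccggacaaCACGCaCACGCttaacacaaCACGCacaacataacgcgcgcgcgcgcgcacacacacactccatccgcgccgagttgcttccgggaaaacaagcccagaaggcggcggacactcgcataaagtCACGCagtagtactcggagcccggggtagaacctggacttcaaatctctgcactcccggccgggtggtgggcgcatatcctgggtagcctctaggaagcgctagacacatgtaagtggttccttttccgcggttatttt
FOSL2 intronic site: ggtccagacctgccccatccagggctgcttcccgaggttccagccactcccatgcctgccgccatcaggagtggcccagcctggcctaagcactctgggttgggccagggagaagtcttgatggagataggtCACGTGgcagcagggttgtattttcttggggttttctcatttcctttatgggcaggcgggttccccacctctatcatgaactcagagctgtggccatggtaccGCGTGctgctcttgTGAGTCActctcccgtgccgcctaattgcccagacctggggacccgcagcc
FOSL1 upstream site: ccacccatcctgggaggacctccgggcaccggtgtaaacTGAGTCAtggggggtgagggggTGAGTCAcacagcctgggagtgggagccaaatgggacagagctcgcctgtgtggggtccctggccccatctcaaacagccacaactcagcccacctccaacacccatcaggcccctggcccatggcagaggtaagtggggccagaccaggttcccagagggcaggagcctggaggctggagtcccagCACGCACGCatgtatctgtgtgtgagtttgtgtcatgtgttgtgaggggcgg

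The FOS promoter held 1 HRE core, 175 bases before the start, and the FOSB promoter held none. In the JUN promoter the TGACATCA site lay 67 bases before the start. An HRE core was present in the promoters of 5 of the 9 genes (JUN, JUNB, FOS, FOSL2 and BATF3), beside 51.5% of the 19856 protein-coding promoters of the same length. No subunit promoter held TGACTCA, against 3.06% of all promoters. JUND alone held TGACGTCA, 200 bases before its start, against 2.4% of all, and JUN alone held TGACATCA, against 1.92%. These counts describe letters in windows and not binding.

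In the control cells FOSL1 was the most abundant subunit mRNA per kilobase of annotated exon, at 105 ± 31.9 CPM per kb (SD, n = 3). JUND (60.0 ± 6.62), JUN (51.3 ± 11) and JUNB (42.5 ± 12.7 CPM per kb) followed, and the ranges of neighbours among these 3 overlapped. The lowest FOSL1 library, at 68.0, and the highest JUND library, at 67.6 CPM per kb, nearly met. FOSL2 came next at 16.9 ± 2.51 CPM per kb, below every control library of JUNB. FOS (11.5 ± 17.6), ATF3 (8.28 ± 4.09) and FOSB (6.88 ± 10.7 CPM per kb) overlapped one another, FOS and FOSB reached above FOSL2 in 1 library each while ATF3 stayed below it, and for FOS and FOSB the SD exceeded the mean. BATF3, which partners JUN proteins mainly in leukocytes, was last at 0.161 ± 0.0334 CPM per kb. By the mean of the pool FOSL1 was first and BATF3 last in the other 2 pools as well, but there the ranges of FOSL1 and JUN overlapped, with FOSL1 from 43.1 to 125 and JUN from 50.3 to 108 CPM per kb in the HIF-1a cells, and FOSL1 from 82.9 to 92.0 and JUN from 47.3 to 97.5 CPM per kb in the HIF-2a cells.

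**Figure D1:**
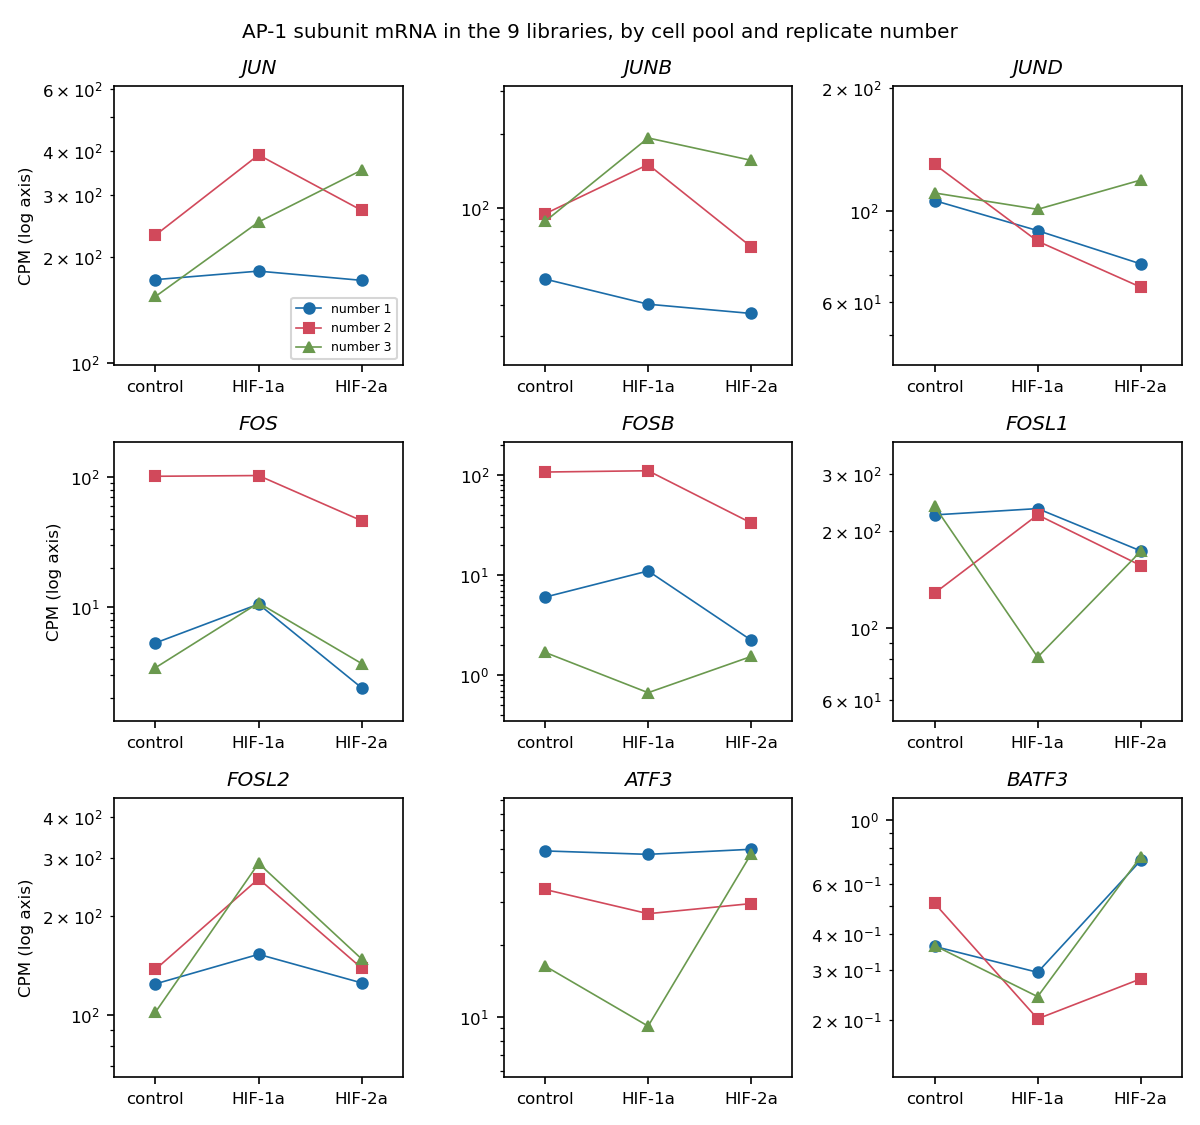
Level of each AP-1 subunit mRNA (CPM, log axis, with its own range per panel) in the 3 cell pools, with 1 point per library and lines joining libraries of the same replicate number. The red line of number 2 lies far above the others for FOS and FOSB, and FOSL2 peaks in the HIF-1a cells at every number.

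Between the replicate numbers, FOS and FOSB changed more than any other subunit gene. Both were highest in the libraries numbered 2 of all 3 pools, by factors of about 10 to 20 over the libraries numbered 1. JUNB was lowest in the libraries numbered 1. The F test over the 3 numbers, with the pool as a term, called FOS, FOSB and JUNB, 3 of 9 subunit genes, where 15.4% of all genes tested were called.

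FOS, the founding FOS protein and a classical serum-response gene, stood at 5.33, 101 and 3.44 CPM in control libraries 1, 2 and 3. The HIF-1a cells gave 10.6, 103 and 10.8 CPM, and the HIF-2a cells 2.41, 46.2 and 3.70 CPM. Every library numbered 2 lay above the 6 other libraries, which 2.86% of all genes showed. Library 2 exceeded library 1 of the same pool 19-fold in the control, 9.71-fold in the HIF-1a and 19.2-fold in the HIF-2a cells. The fitted differences were a log2 fold change of 3.94 (SE 0.33) for number 2 against 1 and -3.91 (SE 0.34) for 3 against 2 (edgeR's quasi-likelihood test, adjusted p = 0.0011 and 0.00555). Numbers 3 and 1 differed by a log2 fold change of 0.03 (SE 0.31, adjusted p = 0.959). In the F test FOS ranked 12 by p-value among the 14225 genes (adjusted p = 0.000327).

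FOSB, a close relative of FOS induced with it, stood at 6.03, 107 and 1.69 CPM in control libraries 1, 2 and 3, at 11, 110 and 0.670 CPM in the HIF-1a cells and at 2.24, 33.2 and 1.54 CPM in the HIF-2a cells. The libraries numbered 2 were again above all others, and those numbered 3 were below all others, which 2.87% of genes showed. Library 2 exceeded library 1 by 17.8-fold, 10.0-fold and 14.8-fold in the control, HIF-1a and HIF-2a cells. All 3 contrasts were past the threshold: the log2 fold change was 3.72 (SE 0.53) for number 2 against 1, -2.04 (SE 0.55) for 3 against 1 and -5.76 (SE 0.60) for 3 against 2 (adjusted p = 0.00904, 0.0436 and 0.00693). The call of number 3 against 1 was lost when any of 6 libraries was left out, namely control 1, 2 or 3 or HIF-1a 1, 2 or 3 (adjusted p of 0.0572 to 0.143). The calls of 2 against 1 and of 3 against 2 were lost without control 2 or HIF-1a 2 (adjusted p of 0.0532 to 0.0642).

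JUNB, a JUN protein induced early and often described as a restraint on JUN, stood at 51.1, 94.3 and 87.9 CPM in control libraries 1, 2 and 3, at 40.4, 150 and 192 CPM in the HIF-1a cells and at 37, 69.2 and 156 CPM in the HIF-2a cells. The libraries numbered 1 were below all 6 others, which 4.66% of genes showed. JUNB was higher in number 2 than in 1 by a log2 fold change of 1.21 (SE 0.30, adjusted p = 0.045) and in number 3 than in 1 by 1.71 (SE 0.31, adjusted p = 0.0085). The first of these calls was lost without control 2, HIF-1a 1, HIF-1a 2, HIF-2a 1 or HIF-2a 2 (adjusted p of 0.0545 to 0.171), and the second held whichever library was left out. The F test for JUNB (adjusted p = 0.0181) was lost without HIF-1a 1 or HIF-2a 1 (adjusted p = 0.0714 and 0.0662).

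The share of genes called was 7.14% for number 2 against 1 (3 of 9 subunit genes, FOS, FOSB and JUNB, all higher, beside 3.18% of genes higher), 12.4% for 3 against 1 (2 of 9, JUNB higher, beside 6.61%, and FOSB lower, beside 5.79%) and 4.4% for 3 against 2 (2 of 9, FOS and FOSB, both lower, beside 1.41%). The median log2 fold change of the 9 genes was 0.33, 0.03 and -0.08 in these contrasts, beside -0.01, 0.00 and 0.00 over all genes. JUN was higher in library 2 than in library 1 of each pool, with ratios of 1.34, 2.14 and 1.58 in the control, HIF-1a and HIF-2a cells. It was not called for number 2 against 1 (log2 fold change 0.73, SE 0.25, adjusted p = 0.108) or in the F test (adjusted p = 0.144). ATF3, a stress-induced repressor and JUN partner, did not pass the test between numbers. Its levels were 49.0, 33.9 and 16.3 CPM in the control, 47.5, 26.9 and 9.19 CPM in the HIF-1a and 49.8, 29.7 and 47.7 CPM in the HIF-2a libraries 1, 2 and 3. The library numbered 1 was thus highest in all 3 pools, as for 13.3% of genes, and the third HIF-2a library stood apart from the other libraries numbered 3. Number 3 against 1 gave a log2 fold change of -1.24 (SE 0.42, adjusted p = 0.0849), and -1.98 (adjusted p = 0.0048) without that library.

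**Figure D2:**
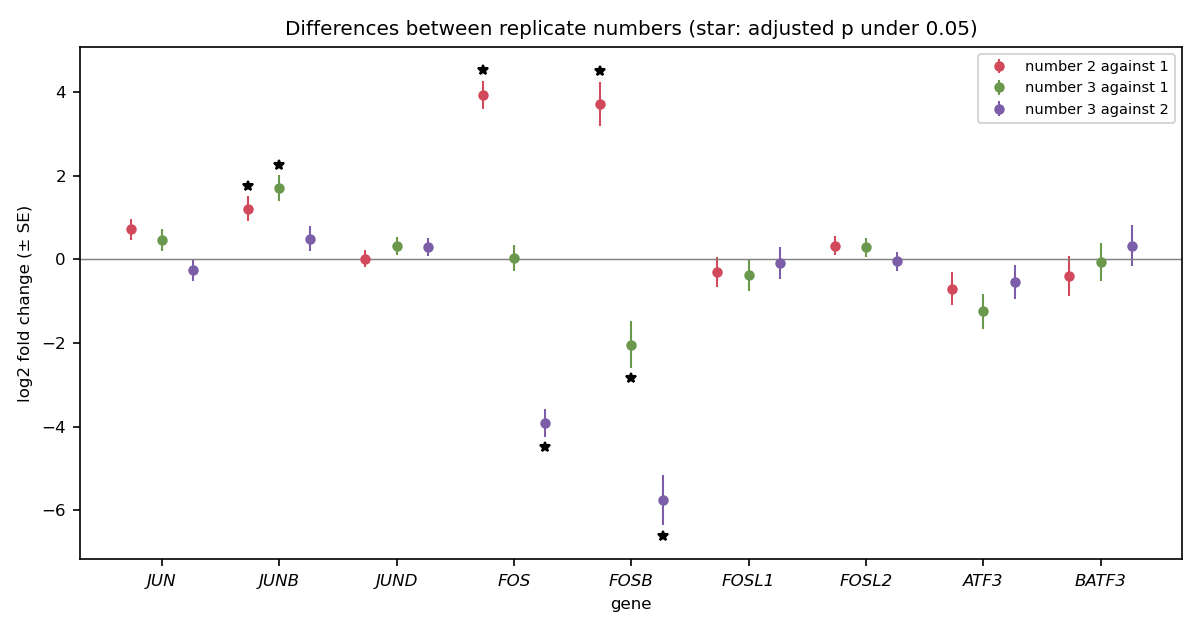
Log2 fold change (± SE) of each subunit gene between replicate numbers, from the edgeR fit with pool and number over all 9 libraries, with stars at an adjusted p under 0.05. FOS and FOSB reach 3.94 and 3.72 for number 2 against 1, and JUN, JUND, FOSL1, FOSL2, ATF3 and BATF3 carry no star.

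Of the spread of log2 CPM over the 9 libraries, 86.5% lay between the numbers for FOS, 90.5% for FOSB and 76.4% for JUNB, where the median over all tested genes was 35.9%. FOSL2 was the reverse case, with 69.2% between the pools (median of all genes 32.6%) and 10.8% between the numbers. BATF3, at only 0.202 to 0.745 CPM, had 54.6% and JUND 41.1% between pools. For FOSL1 78.2% lay in neither. The SD of FOSB over the libraries, 2.70 on the log2 scale, was exceeded by 0.134% of genes and that of FOS, 2.10, by 0.626%. The median of all genes was 0.44.

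**Figure D3:**
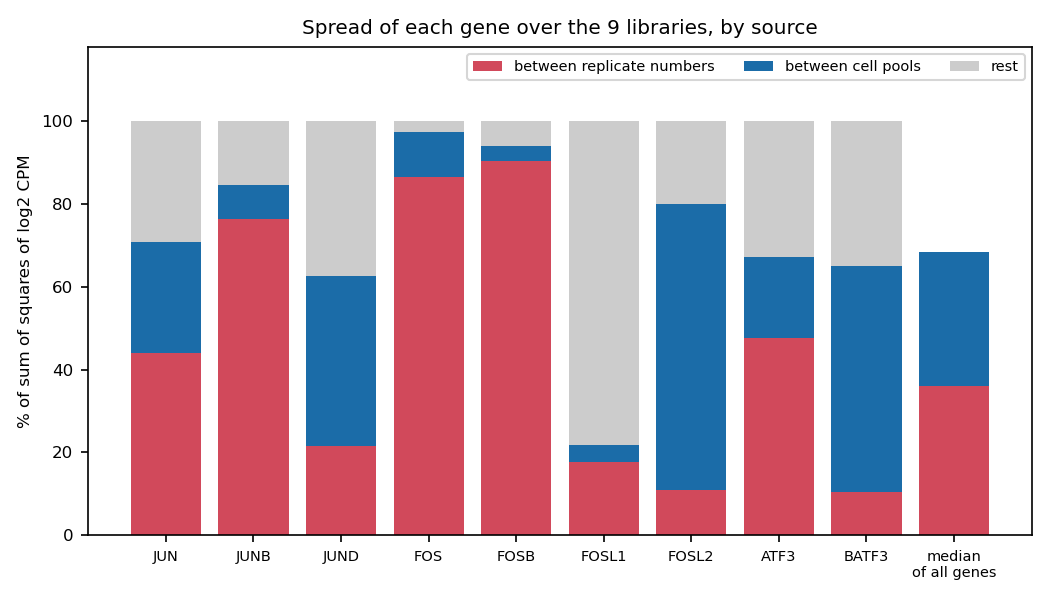
Share (%) of the sum of squares of log2 CPM over the 9 libraries that lay between replicate numbers, between cell pools and in the rest, per subunit gene. The last bar stacks the medians of the first 2 shares over all 14225 genes and, being made of medians, does not reach the top. Replicate number takes most of the bars of FOS, FOSB and JUNB, and cell pool most of that of FOSL2.

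The gene whose profile over the 9 libraries came closest to FOS was EGR1, a zinc-finger immediate-early gene, with a root mean square difference of 0.88 on the log2 scale, followed by FOSB (1.23) and SP8 (1.24). The closest to FOSB were FOS, EGR1 (1.66) and FAT2 (1.70). The difference is not scaled to the spread of a gene, so its size cannot be compared between genes of unlike spread. The SD over the libraries was 2.10 for FOS and 2.70 for FOSB, against 0.50 for FOSL2 and 0.33 for JUND. The closest to FOSL2 were LAMC1 (0.11), OXR1 (0.13) and RLF (0.15), and to JUND TLE1 (0.10), WASH3P (0.16) and GSKIP (0.16). JUN was closest to LOC642236 (0.17), INE1 (0.17) and AK4 (0.19). JUNB was closest to UGT1A6 (0.26), SAA1 (0.29) and RRAD (0.33), ATF3 to TNFRSF9 (0.19), DLX2 (0.28) and MICALL1 (0.30), FOSL1 to PLD6 (0.23), EMC10 (0.23) and PIP5K1C (0.24), and BATF3 to H3F3C (0.24), SCARF2 (0.24) and FAM109B (0.26). UGT1A6, SAA1, WASH3P and H3F3C share exons with or closely resemble other genes, so their counts are uncertain.

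Genes around AP-1 were compared between the numbers in the same fit, in which 15.4% of all genes were called by the F test. Of 19 other immediate-early genes tested, 3 were called, a share near that of all genes. EGR1 was higher in number 2 than in 1 (log2 fold change 2.31, SE 0.27, adjusted p = 0.00434) and lower in 3 than in 2 (-2.11, SE 0.26, adjusted p = 0.0118). Its 3 libraries numbered 2 held 145 to 301 CPM, and the other libraries 17.4 to 70.3 CPM. DUSP1, a phosphatase that shuts off MAP kinases, was lower in number 3 than in 2 (-1.26, SE 0.27, adjusted p = 0.0384). PPP1R15A, a stress-induced phosphatase subunit, was lower in numbers 2 and 3 than in 1 (-1.15, SE 0.30, and -1.51, SE 0.30, adjusted p = 0.0491 and 0.0134). The median log2 fold change of the 19 genes was 0.42 for number 2 against 1.

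ATF4 and its stress targets, which include DDIT3 and CHAC1, gave 6 of 9 genes in the F test. For number 2 against 1, 5 of the 9 fell, beside 3.95% of all genes, and none rose, beside 3.18%. For number 3 against 1, 5 fell, beside 5.79% of all genes, and 1, GADD45B, rose (1.02, SE 0.18, adjusted p = 0.00906), beside 6.61%. CHAC1, which degrades glutathione, averaged 37 CPM in the libraries numbered 1, 5.65 in those numbered 2 and 3.49 in those numbered 3 (log2 fold change of -2.72, SE 0.21, and -3.41, SE 0.21, against number 1, adjusted p = 0.0011 and 9.77e-05). ASNS, the asparagine synthetase, averaged 304, 82.9 and 61.6 CPM (-1.89, SE 0.16, and -2.31, SE 0.17, adjusted p = 0.0011 and 0.000211). CHAC1 and ASNS were thus low in numbers 2 and 3, whereas FOS was high in number 2 alone.

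Of 12 genes of ERK feedback and output, 3 were called in the F test. SPRY4, an inhibitor of ERK signalling, was lower in numbers 2 and 3 than in 1 (-2.17, SE 0.45, and -2.33, SE 0.45, adjusted p = 0.0276 and 0.0118), and so was ETV5, an ETS factor downstream of ERK (-1.06, SE 0.26, and -1.47, SE 0.26, adjusted p = 0.0425 and 0.00809). Of 15 MAP kinases and SRF partners, 2 were called, a share no higher than that of all genes. MAPK10, the JNK3 kinase, was higher in numbers 2 and 3 (1.37, SE 0.31, and 2.38, SE 0.32, adjusted p = 0.0366 and 0.00261) at levels of 1.16 to 8.78 CPM. MAPK3, which encodes ERK1, was higher in number 3 than in 1 (0.92, SE 0.22, adjusted p = 0.0296).

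Of 9 other bZIP partners tested, 2 were called. JDP2, which dimerizes with JUN and represses, averaged 18.1 CPM in number 1, 6.88 in 2 and 4.22 in 3 (-1.37, SE 0.21, and -2.08, SE 0.22, adjusted p = 0.0117 and 0.000949), and MAFG was lower in number 3 than in 1 (-1.03, SE 0.24, adjusted p = 0.0241). Of 19 genes known as AP-1 targets, 6 were called and in both directions. TGFB1 was higher in numbers 2 and 3 than in 1 (0.82, SE 0.20, and 1.29, SE 0.20, adjusted p = 0.0457 and 0.00531), as was the collagenase MMP13 in 3 against 1 (2.60, SE 0.67, adjusted p = 0.0358). PLAU, the urokinase, was lower in number 2 than in 1 (-1.24, SE 0.27, adjusted p = 0.0328), and TIMP1, a metalloproteinase inhibitor, was higher in 3 than in 2 (1.28, SE 0.21, adjusted p = 0.0224). The stromelysin MMP10 was lower in numbers 2 and 3 than in 1 (adjusted p = 0.0235 and 0.00366), with mean levels of 1.12, 0.158 and 0.0509 CPM in numbers 1, 2 and 3 and libraries at 0.

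Between the cell pools, no subunit gene passed the threshold in the fit with the pool as the only term. That fit called 0% of all genes for the HIF-1a and for the HIF-2a cells against the control, and 0.0492%, or 7 genes, for the HIF-1a against the HIF-2a cells. At an unadjusted p under 0.05 it named 1, 0 and 2 subunit genes and 19.4%, 5.89% and 13.6% of all genes. With the replicate number as a block, 7.96%, 0.267% and 5.93% of all genes were called. These shares depend on single libraries: leaving out 1 gave 0 to 2408 genes in place of 1132 for the HIF-1a cells against the control (0 without control 2, control 3, HIF-1a 2 or HIF-2a 1, and 2408 without control 1), 2 to 94 in place of 38 for the HIF-2a cells against the control, and 167 to 890 in place of 843 for the HIF-1a against the HIF-2a cells. DESeq2 without a block called 736, 65 and 650 genes. In the blocked fit FOSL2 was higher in the HIF-1a cells than in the control (1 of 9 subunit genes, beside 5.41% of genes higher), and FOS higher in the HIF-1a than in the HIF-2a cells (1 of 9, beside 4.54%). No subunit gene was called between the HIF-2a and the control cells. Both comparisons with the control use the same 3 control libraries. In bulk RNA from a pool, a change in every cell cannot be told apart from a change in some of them.

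FOSL2, a FOS-related protein that lacks a strong activation domain, stood at 124, 137 and 102 CPM in the control cells, at 153, 259 and 289 CPM in the HIF-1a cells and at 125, 139 and 148 CPM in the HIF-2a cells. All HIF-1a libraries lay above all libraries of both other pools, which 12.9% of genes showed against the control and 10.4% against the HIF-2a cells. No subunit gene was lower in all HIF-1a than in all HIF-2a libraries (8.82% of genes), and none stood apart between the HIF-2a and control libraries (6% of genes higher, 5.19% lower). Within a number, the ratio of HIF-1a to control was 1.23, 1.89 and 2.84, and the HIF-2a to control ratio was 1.01, 1.01 and 1.45. The log2 fold change of the HIF-1a cells against the control was 0.95 (SE 0.26, adjusted p = 0.162) without and 0.91 (SE 0.23, adjusted p = 0.0455) with the block. DESeq2 called it without a block as well (adjusted p = 0.0386). With the block, leaving out 1 library kept the call only without control 1 (adjusted p = 0.0293) or HIF-1a 1 (adjusted p = 0.0498), and the value ran from 0.67 to 1.15. The lowest, 0.67 (adjusted p = 0.183), was without control 3, the control library with the high HIF1A level. Against the HIF-2a cells the log2 fold change was 0.77 (SE 0.26, adjusted p = 0.236), and 0.74 (SE 0.23, adjusted p = 0.0905) with the block.

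FOS was higher in the HIF-1a than in the HIF-2a cells at every number, 4.40-fold at number 1, 2.22-fold at number 2 and 2.92-fold at number 3. The fit by pool gave a log2 fold change of 1.25 with an SE of 1.48 (adjusted p = 0.746) and the blocked fit 1.62 with an SE of 0.31 (adjusted p = 0.0196). Leaving out a control library or HIF-1a 2 kept this call, and leaving out HIF-1a 1 or 3 or any HIF-2a library lost it (adjusted p of 0.0594 to 0.0849). Against the control, FOS in the HIF-1a cells stood at ratios of 1.99, 1.01 and 3.14 (blocked log2 fold change 0.85, SE 0.30, adjusted p = 0.0966), and in the HIF-2a cells at 0.452, 0.455 and 1.08 (-0.77, SE 0.31, adjusted p = 0.311).

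FOSB stood at 0.371, 0.310 and 0.910 times the control in the HIF-2a cells at numbers 1, 2 and 3, and did not pass the test (blocked log2 fold change -1.07, SE 0.53, adjusted p = 0.377). JUNB showed ratios of the HIF-1a to the control cells of 0.790, 1.59 and 2.19 (0.71, SE 0.60, adjusted p = 0.521). In JUNB the HIF-1a cells were above the HIF-2a cells at all 3 numbers, with overlapping libraries.

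JUN, the central partner of the FOS proteins, stood at 172, 231 and 154 CPM in the control, 182, 390 and 251 CPM in the HIF-1a and 171, 271 and 353 CPM in the HIF-2a cells. Its log2 fold change was 0.56 (SE 0.34, adjusted p = 0.382) for the HIF-1a and 0.51 (SE 0.34, adjusted p = 0.842) for the HIF-2a cells, with overlapping libraries. Within the numbers the HIF-1a cells were at 1.06, 1.69 and 1.63 times the control, higher in every pair, and the blocked fit did not pass (0.50, SE 0.25, adjusted p = 0.193). JUND, the JUN protein that is expressed most steadily, stood at 106, 130 and 111 CPM in the control and at 89.7, 84.6 and 101 CPM in the HIF-1a cells. These pools did not overlap, with the HIF-1a cells lower, as in 11.2% of genes, but the difference of -0.33 (SE 0.24) did not pass the test (adjusted p = 0.458). The HIF-2a cells gave 74.4, 65.3 and 119 CPM of JUND, and overlapped with the control.

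FOSL1, often the leading FOS protein in carcinoma lines, stood at 225, 128 and 239 CPM in the control, 235, 225 and 81.3 CPM in the HIF-1a and 174, 156 and 173 CPM in the HIF-2a cells. The third HIF-1a and the second control library were low, and neither pool passed the test against the control (-0.13, SE 0.38, and -0.23, SE 0.38, adjusted p = 0.874 and 0.929). BATF3 stood at 0.362, 0.512 and 0.365 CPM in the control, 0.294, 0.202 and 0.242 CPM in the HIF-1a and 0.722, 0.279 and 0.745 CPM in the HIF-2a cells. At these low levels its HIF-1a libraries were below all control libraries, as in 11.2% of genes (log2 fold change -0.74, SE 0.50, adjusted p = 0.425). The difference from the HIF-2a cells, -1.24 (SE 0.50), had an adjusted p of 0.307. ATF3 ran from 9.19 to 49.8 CPM with overlapping pools, and its HIF-1a and control cells differed by -0.25 (SE 0.54, adjusted p = 0.828). Within the numbers 1, 2 and 3 ATF3 in the HIF-1a cells stood at 0.968, 0.793 and 0.563 times the control and at 0.953, 0.908 and 0.193 times the HIF-2a cells, lower in every pair. The blocked fit passed neither (-0.34, SE 0.40, adjusted p = 0.581, and -0.90, SE 0.42, adjusted p = 0.223).

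**Figure D4:**
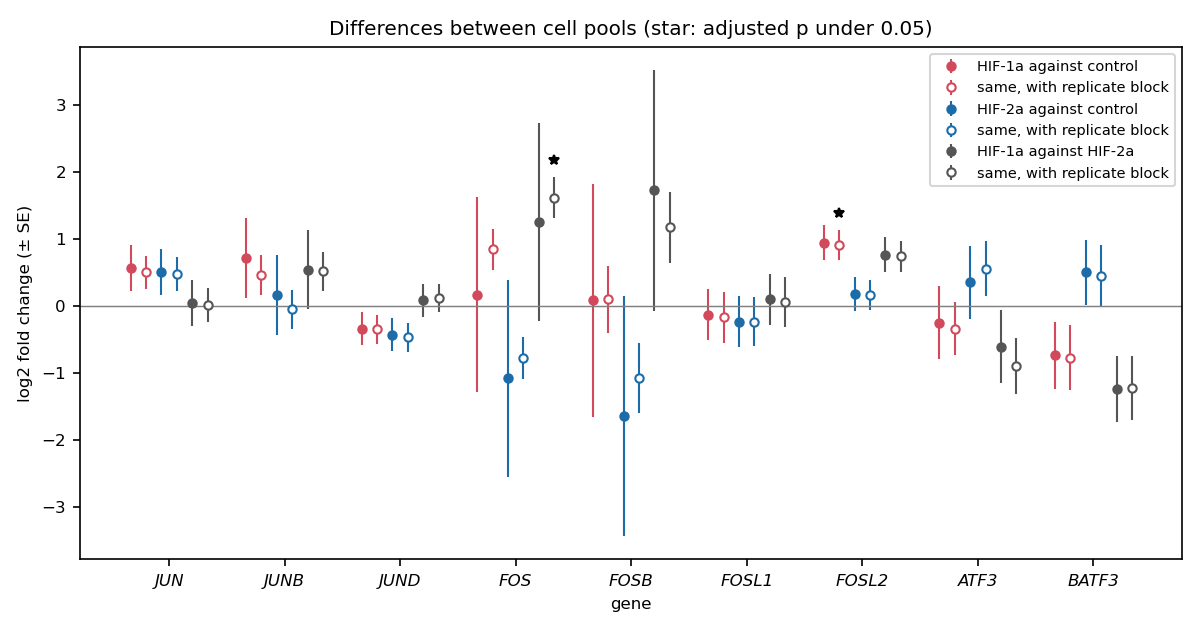
Log2 fold change (± SE) of each subunit gene between cell pools in the edgeR fit by pool (filled) and in the blocked fit (open), with stars at an adjusted p under 0.05. The bars of FOS and FOSB shrink with the block, FOS from an SE of 1.48 to 0.31 in the HIF-1a against HIF-2a comparison, and stars stand at FOSL2 and FOS in the blocked fit.

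The median log2 fold change of the 9 subunit genes was 0.09 for the HIF-1a and 0.17 for the HIF-2a cells against the control, beside 0.04 and -0.02 over all genes. The third comparison, of the HIF-1a with the HIF-2a cells, gave 0.10 beside 0.02. In the surrounding lists too, no gene was called without the block. With it, SPRY1, an ERK antagonist, was called in the HIF-1a cells at 1.57, 20.3 and 3.63 CPM against 0.512 to 0.703 CPM in the control (log2 fold change 3.07, SE 0.67, adjusted p = 0.0385). It was the only gene called among the 12 of ERK feedback and output. Of the AP-1 targets, GJA1, which encodes connexin 43, was higher in the HIF-1a cells than in the control (1.13, SE 0.26, adjusted p = 0.0413). Of the other immediate-early genes, EGR1 and NR4A1, an orphan nuclear receptor, were higher in the HIF-1a than in the HIF-2a cells (1.23, SE 0.26, and 1.53, SE 0.32, adjusted p = 0.0274 and 0.027), as FOS was. No other bZIP partner, MAP kinase, SRF partner or ATF4 stress gene was called between pools with or without the block.

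The peak lists were searched for windows whose midpoint lay within 10 kb of a start site of a subunit gene. All 9 genes had such a peak in at least 1 list, against 41% of the 20163 annotated protein-coding genes. Peaks are windows of 2500 bases with no height, and each list stands for 1 library, so no test was made. The lists differ in length from 1350 to 6572 peaks, and the depth of the ChIP-seq libraries is not known from them.

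With the HIF-2a antiserum, 4 of the 9 genes had a peak in the control cells (JUN, JUNB, FOSL1 and ATF3, against 3.78% of all coding genes), 2 in the HIF-1a cells (JUN and FOSL1, against 3.03%) and 4 in the HIF-2a cells (JUN, JUNB, FOSL1 and FOSL2, against 10.6%). The HIF-1a antiserum, used in the HIF-1a cells, gave peaks at 8 of 9, all but BATF3, against 25.3%. HIF-1b peaks stood at 7 genes in the control cells, all but FOS and BATF3 (against 19%), at all 9 in the HIF-1a cells (29.7%) and at 6 in the HIF-2a cells, all but FOS, FOSB and BATF3 (11.7%). Expressed genes carry peaks more often: of the 12419 coding genes also tested in the RNA-seq, 5.28%, 4.21% and 14.7% had a HIF-2a peak in the control, HIF-1a and HIF-2a cells and 35.2% a HIF-1a peak. For HIF-1b the shares were 26.1%, 41.6% and 16.4%.

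At JUN, overlapping peaks of all 7 lists covered chr1:59248021-59252126, across the start of the gene and its upstream region, with their median midpoint 0.953 kb before the start. The 300 bases printed above for this site, from the HIF-2a peak of the control cells, hold 4 HRE cores and no AP-1 site. A second site 28.4 kb downstream of the start was in 6 lists and another, 31.2 kb upstream, in 5. Neither lay within 10 kb of any other coding gene's start, and JUN was the nearest.

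FOSL2 had a site at its start (chr2:28613360-28616799) in 5 lists: both HIF-1a-cell lists of HIF-1a and HIF-1b, the HIF-1b list of the control, and both lists of the HIF-2a cells. The HIF-2a lists of the control and of the HIF-1a cells lacked it. The intronic site 13.7 kb downstream of the nearest annotated start (chr2:28629329-28633958) was in all 7 lists. The sequence printed for it, the centre of the HIF-2a peak of the control cells, holds 1 CACGTG, 1 GCGTG and 1 TGAGTCA. The midpoint of the HIF-1a peak, at chr2:28630578.5, lies outside these bases. A further site 32.9 kb upstream was in 6 lists. The FOSL2 mRNA, as given above, was highest in the HIF-1a cells, and whether a peak and a level belong together was not tested.

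Within 50 kb of FOSL1 lay 8 sites, but FOSL1 was the nearest coding gene only to those 1.24 kb downstream and 2.63 kb upstream. The others lay nearer to a start of CFL1, EFEMP2, CTSW, CCDC85B or C11orf68. The site 2.63 kb upstream (chr11:65668891-65672164) was in 6 lists, and that 11.1 kb upstream was in all 7. A chain of windows 16.4 kb upstream came from all 7 lists too. Its midpoints spread over 3536 bases, so the lists need not share a site there. The nearest start of a coding gene to the median midpoints at 11.1 kb and 16.4 kb was that of C11orf68. The printed FOSL1 sequence, the centre of the HIF-2a peak of the HIF-1a cells 11.1 kb upstream, holds 2 HRE cores and 2 AP-1 sites.

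FOS, whose mRNA varied most with the replicate number after FOSB, had a peak at its start (chr14:75744205-75746712) in the HIF-1a and HIF-1b lists of the HIF-1a cells and in no list of the control or HIF-2a cells. The 2 midpoints were 8 bases apart, and the printed FOS promoter with its single HRE core lies within this region. FOSB had a site at an internal annotated start (chr19:45971373-45974282) in 3 lists, none of the HIF-2a antiserum. Its midpoints lay 1.37 to 1.78 kb downstream of the first annotated start, and the site does not reach the printed FOSB promoter. Another site, 12.1 kb upstream, was in 5 lists. That upstream site lay nearer to a start of ERCC1, a DNA repair gene that overlaps FOSB.

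JUNB had a site 8.22 kb upstream in 5 lists. Windows of 6 lists formed a chain across the gene (chr19:12900941-12908567), with midpoints spread over 5127 bases, so these lists need not share a site. In it the HIF-1a peak of the HIF-1a cells lay 0.0565 kb from the JUNB start (positive downstream). The HIF-1b peak of the HIF-2a cells lay at -0.1095 kb. Both lists had another peak further downstream, at 4.98 and 5.02 kb, and the HIF-2a peak of the control cells lay at 4.71 kb. HOOK2, which overlaps JUNB on the other strand, had the nearest start to the 8.22 kb site and to the median midpoint of the chain. JUND had a site at its start in 4 lists, none of the HIF-2a antiserum. ATF3 had its site at its canonical start (chr1:212780508-212784043), which lies downstream of its first annotated start. The site was in 5 lists, which include the HIF-2a list of the control but not those of the HIF-1a or HIF-2a cells. BATF3 had a single peak, 0.186 kb from its start, in the HIF-1b list of the HIF-1a cells.

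**Figure D5:**
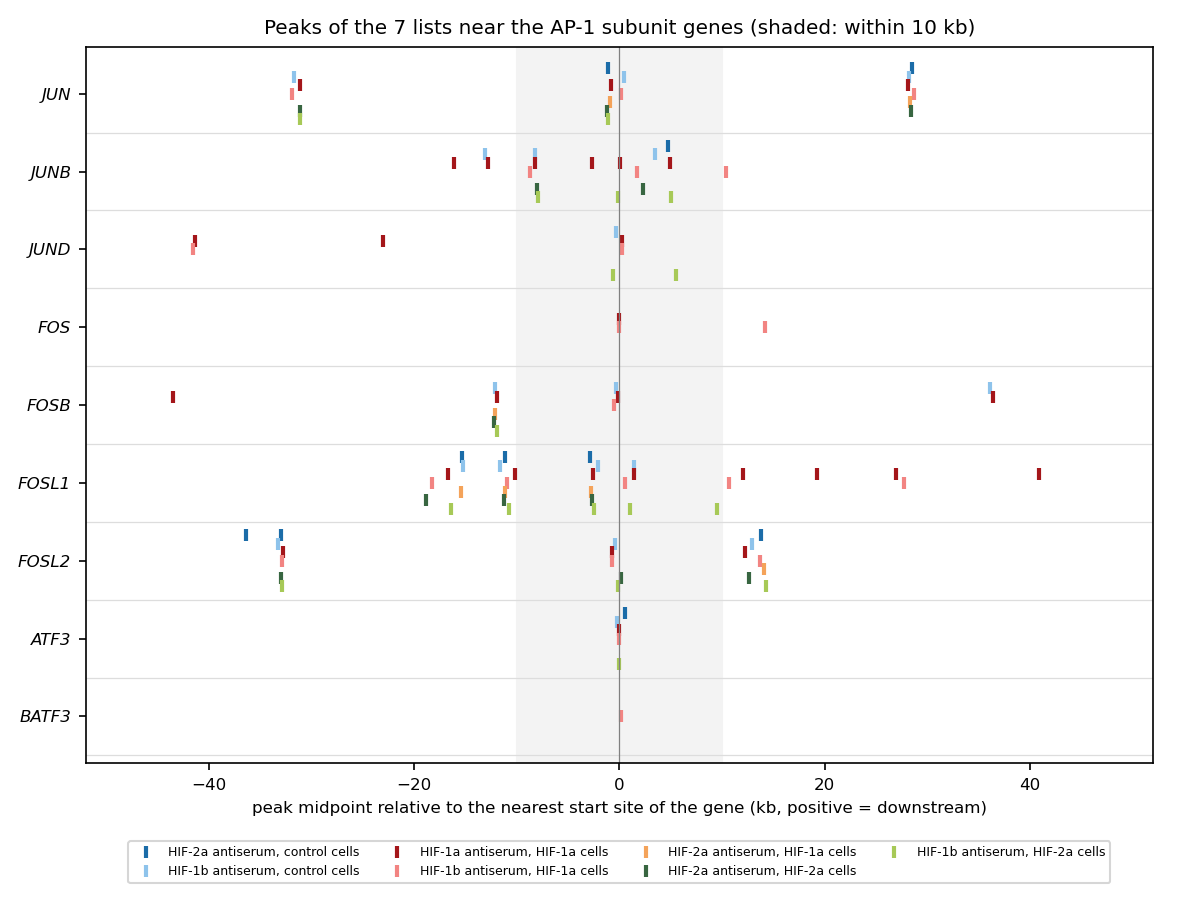
Midpoints of the peaks of the 7 lists within 50 kb of an annotated start site of each subunit gene (kb, positive downstream), with 1 tick per peak, coloured by antiserum and cells, and the 10 kb window shaded. JUN carries ticks of all 7 lists at its start, FOS and BATF3 only of lists from the HIF-1a cells.

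Of the 53 distinct peaks within 10 kb of the subunit genes, 40 (75.5%) held an HRE core in the central 300 bases, beside 60.3% of all 29309 peaks, and 5 (9.43%) held TGACTCA, beside 14.9%. The shares over all peaks differ by list, from 45.7% to 68.2% for the HRE core and from 4.96% to 27.5% for TGACTCA. They were not matched to the 53 peaks by list or by nearness to a start site. Peaks of different lists at 1 site share these bases and are not independent. Reads of JUNB and HOOK2, FOSB and ERCC1, and FOSL2 and FOSL2-AS1 could be mixed in the counts, since each pair overlaps and the strand setting of the counting is not given in the sources used here.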

How the data were processed

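RNA-seq (9 libraries) and ChIP-seq (7 peak lists) of transduced 786-O cells were used. The authors deposited raw counts per gene, not normalized, from TopHat2 2.0.8b, Bowtie 1.0.0 and HTSeq 0.5.4p3 per the labels. The deposited peak lists hold positions only, on GRCh37: reads were trimmed (Trim Galore 0.3.3), aligned (BWA 0.7.5a-r405), filtered on mapping quality, blacklisted regions and duplicates, and peaks called by both T-PIC and MACS were kept where their reads exceeded random background regions.

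Counts were analysed with edgeR 4.0.16 in R 4.3.3: TMM factors, filterByExpr, the quasi-likelihood test, Benjamini-Hochberg adjustment over 14225 genes and a threshold of 0.05. Pools were compared with the pool as the only term, and replicate numbers with pool and number. Alternatives were a replicate block, DESeq2 1.42.0, RLE factors, no filter, 2 pools only and leaving out each library. Leaving out each library from the blocked fit was added after the data had been seen. Library totals were 27852754 to 54287621 counts, and libraries of a pool differed far beyond sampling noise (chi-square per degree of freedom of 159.4 to 430.2).

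After subtraction of the pool means, all 9 same-number pairs from different pools correlated across genes (0.348 to 0.652), whereas r in the 18 pairs of unlike number was -0.478 to 0.0281. By this check, which comes from the data and not from the labels, the numbers pair the libraries.

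Start sites came from GENCODE lifted to GRCh37. Sequences were read with pysam 0.24.0 in Python 3.11.15 (samtools 1.23.1), and levels per kilobase use the exons of GENCODE and not the gene set of the authors' counts. Log2 CPM for profiles used a prior count of 2. The fits were first run on simulated counts with changes added to chosen genes and no other difference between replicate numbers. For the HIF-1a cells against the control, 100% of log2 changes of 2 and 34% of those of 1 were recovered, with 11 false calls. For number 2 against 1 the shares were 100% and 49%, with 7 false calls. The data had a common dispersion of 0.141 by pool and 0.0603 with pool and number. The simulation thus does not show how the fit by pool performs on these libraries.

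The members and gene lists were chosen with earlier results of these data known. Named by rule were the 9 subunit genes, HIF1A and EPAS1, the 3 genes closest in profile to each, and per other list and comparison at most 2 higher and 2 lower genes past the threshold, in the blocked fit where none passed without it. Some results of the other lists are not reported here.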

Additional observations from a re-analysis of the deposited data

How the results depend on the processing

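Of the single-gene values between pools, 373 kept direction and call, 7 gained a call and 25 turned direction. No subunit gene was called between pools in the main fit, so no call could be lost there. Between numbers 421 kept both, 22 lost and 6 gained a call, and 19 turned direction. The causes were not tested beyond what each alternative leaves out. The groups of 3 limit what can be seen, as do the single peak lists, which carry neither heights nor depth.

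With the replicate block (pairing by number), all-gene calls were 1132, 38 and 843 for HIF-1a against control, HIF-2a against control and HIF-1a against HIF-2a, in place of 0, 0 and 7 (0 to 2408, 2 to 94 and 167 to 890 with 1 library left out), and subunit calls were 1, 0 and 1 in place of 0. DESeq2 called 736, 65 and 650 genes and 1, 0 and 0 subunit genes, and DESeq2 with the block 2970, 487 and 1798 genes and 2, 0 and 2 subunit genes. Beyond the FOSL2 and FOS calls of the block, the latter added FOS against control (0.83, adjusted p = 0.0488) and FOSL2 against HIF-2a (0.72, adjusted p = 0.0366). JUNB in the HIF-2a cells turned to -0.050 in the block and -0.053 in DESeq2 with the block, and JUN in HIF-1a against HIF-2a to -0.0028 in DESeq2 with the block. Without the filter 1 gene was called for HIF-2a against control and 82 for HIF-1a against HIF-2a, and with only the 2 pools compared 2 and 0. Leaving out 1 library gave 0 to 2 and 0 to 29 genes in these comparisons.

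Between numbers (F test, 2 against 1, 3 against 1, 3 against 2), DESeq2 called 3962, 2222, 2737 and 1868 genes in place of 2190, 1015, 1763 and 626. With the number as the only term, 406, 93, 561 and 0 were called, with 1 subunit gene in 3 against 1 and 0 in 3 against 2. There FOS in 3 against 1 turned to -0.024 and FOSL2 in 3 against 2 to 0.0089. Leaving out 1 library gave 706 to 2721, 79 to 1776, 607 to 1631 and 2 to 949 genes, and 2 to 4 subunit genes in the F test and 1 to 3 in each contrast.

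Leaving out 1 library also turned the direction of values that had not passed the test. For HIF-1a against control the log2 fold change ran from -1.81 to 3.23 for FOS, -2.74 to 3.39 for FOSB, -0.37 to 0.22 for FOSL1 and -0.88 to 0.17 for ATF3. For HIF-2a against control it ran from -0.54 to 0.53 for JUNB, -3.60 to 2.01 for FOS and -4.35 to 1.69 for FOSB, and for HIF-1a against HIF-2a from -0.32 to 0.28 for JUN, -0.094 to 0.36 for JUND, -0.75 to 3.75 for FOS, -1.12 to 4.41 for FOSB and -0.14 to 0.45 for FOSL1. Between numbers 2 and 1 it ran from -0.17 to 0.21 for JUND, -0.72 to 0.047 for FOSL1 and -0.91 to 0.079 for BATF3, between 3 and 1 from -0.17 to 0.37 for FOS, -0.82 to 0.11 for FOSL1 and -0.37 to 0.13 for BATF3, and between 3 and 2 from -0.48 to 0.44 for FOSL1, -0.27 to 0.17 for FOSL2 and -0.15 to 0.85 for BATF3.

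With a window of 50 kb, 4 subunit genes in place of 2 had a HIF-2a peak in the HIF-1a cells. Of 114 peaks within 50 kb, 103 overlapped a peak of another list by 1 base, and 67 had midpoints within 250 bases of one.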
